A study of Mus musculus with 36 samples.

Results

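Gm5106, Erich5 and Nos3 were examined in mouse blood 7 days after irradiation. The 3 genes, of 31093 gene names on the array, were chosen for their rise after neutron irradiation alone, so their values against controls and the values of the neutron group against any other group are given as descriptions, with no test. All 4 probes that the array annotation assigns to these names were followed, 1 for Gm5106, 1 for Erich5 and 2 for Nos3. Male C57BL/6J mice, young adults per the study's methods, were sham-irradiated as controls or received 3 Gy of x-rays, 3 Gy of a mixed neutron/x-ray field with a 5%, 15% or 25% neutron component, or 0.75 Gy from the neutron source (labelled as the 100% neutron exposure). The neutron source also delivers some photons, according to the methods. The 25% mixed field held 0.75 Gy of neutrons, the same neutron dose as the neutron group, while the 5% and 15% fields held 0.15 and 0.45 Gy. Each group had 6 mice with 1 one-colour array each, 36 arrays in all, of globin-reduced RNA from whole blood taken by cardiac puncture.

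Nos3 encodes endothelial nitric oxide synthase, which makes nitric oxide from arginine with tetrahydrobiopterin as cofactor and is bound by calmodulin and caveolin. It is known as the synthase of the vessel lining, and low levels are also described in red cells and platelets. Nitric oxide acts mainly through soluble guanylate cyclase and the cyclic GMP-dependent kinase in vascular smooth muscle and platelets. Erich5 encodes a protein rich in glutamate whose function is little described. Gm5106 is a predicted gene that RefSeq lists as a long non-coding RNA.

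The probes are shown first because the results turn on them. Each is a 60-base oligonucleotide, and positions are those of the array annotation on mouse build mm9. The Gm5106 probe lay at chr5:8797945-8798004 on the minus strand, the Erich5 probe at chr15:34403577-34403636 on the plus strand, the first Nos3 probe at chr5:23890038-23890097 on the plus strand, and the second Nos3 probe at chr5:23889636-23889695 on the plus strand. The second Nos3 probe started 402 bases upstream of the first in the same transcript, at base 3466 against base 3868. Whether these positions are coding was not analysed here. For Erich5 and the first Nos3 probe a 30-base stretch is printed with the alternating run of C and T in capitals, followed by the first 30 bases of 4 of the probes whose signal was most like theirs (values below).
Erich5: gtgttggtgaTCTCTCTCTCTttctttctc
Nos3 first probe: ctccctttaaCTCTCTCTCTggagtatctt
Wfdc13: CTCTCTCTCTggatcagcttgctcatcatt
Srpx2: CTCTCTCTCTagactcttcccaaagccttt
4733401D01Rik: TCTCTCTCTCTCataggaggtctcactgta
Tas2r109: agacacgcCTCTCTCTCTgtgttgtcgtgg
The last 4 lie at chr2:164513128-164513187 and chrX:130466293-130466352 on the plus strand and at chr14:21491931-21491990 and chr6:132930033-132930092 on the minus strand, in the order printed.
The second Nos3 probe held no such run, with C and T alternating over at most 3 bases.
Nos3 second probe: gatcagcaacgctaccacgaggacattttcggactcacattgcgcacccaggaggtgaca
The Gm5106 probe likewise had a longest C and T run of 3 bases. Its capitals in the line below mark the 10 bases it shared with the probe for Gm9924, the gene most like it across arrays, at chr5:31399309-31399368 on the plus strand (first 30 bases printed).
Gm5106: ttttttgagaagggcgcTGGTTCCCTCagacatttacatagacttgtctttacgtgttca
Gm9924: gaTGGTTCCCTCcaaactccctccccggtg

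Values are log2 intensities relative to the median of the array's probes, so that a difference of 1 is a 2-fold difference in signal, and they are not comparable between probes. Between 15569 and 21294 of the 39429 probes per array were well above background. The Gm5106, Erich5 and first Nos3 probes were well above background on 36 of 36 arrays and saturated on 0. Scan dates in the file headers fall into 4 sessions. Session 1 held 5 control and 5 x-ray arrays, session 2 held 5 arrays each of the 5% and 15% fields, session 3 held all 12 arrays of the 25% field and the neutron group, and session 4 held the 4 arrays of 1 slide, from a control, an x-ray, a 5% and a 15% mouse. The 5% and 15% fields can therefore be set against controls or x-rays within a session on that slide alone. X-rays against controls, 15% against 5% and neutrons against 25% could be compared within session 1, 2 and 3. For the neutron group and the 25% field against controls or x-rays, exposure and session cannot be told apart. In whole blood, more cells of a type and more RNA per cell cannot be told apart either.

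Gm5106 stood at 3.47, 3.53, 5.63, 3.89, 2.60 and 3.42 in the 6 controls. After x-rays the levels were 3.89, 5.07, 5.51, 4.88, 4.74 and 5.86. The 5% field gave 11.43, 8.01, 6.73, 8.55, 5.30 and 9.71, and the 15% field gave 12.34, 9.45, 5.04, 10.39, 13.10 and 12.83. The neutron arrays lay above every control and every x-ray array. By contrast, 1 array of the 5% field, 1 of the 15% field and 2 of the 25% field fell within the range of the controls. That overlap rested on the control of session 4 (5.63), since the 5 controls of session 1 spanned 2.60 to 3.89. The 25% field read 8.22, 8.68, 4.79, 5.37, 9.57 and 9.39, and the neutron group 9.13, 8.23, 9.82, 9.90, 9.91 and 10.92. As group means, Gm5106 was 3.76 ± 1.01 (SD, n = 6) in controls, 4.99 ± 0.68 after x-rays, 8.29 ± 2.16 at 5%, 10.52 ± 3.05 at 15%, 7.67 ± 2.07 at 25% and 9.65 ± 0.90 after neutrons. All comparisons with controls share the same 6 control arrays. The mean difference of Gm5106 from controls was 59.5-fold after neutrons, 109-fold at 15%, 23.1-fold at 5%, 15.1-fold at 25% and 2.35-fold after x-rays. The highest mean of Gm5106 was at 15% rather than after neutrons alone, and the 15% and neutron arrays overlapped.

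On the slide of session 4, Gm5106 read 5.63 in the control, 5.86 after x-rays, 5.30 at 5% and 5.04 at 15%. The 4 arrays of this slide spanned less than 1 log2 unit, and the 15% array was 0.59 below the control array beside it. The control of this slide was the highest of the 6 controls, and its 5% and 15% arrays were the lowest of their groups. Within session 1, Gm5106 was 1.44 higher after x-rays than in controls (5 against 5 arrays). Within session 3, it was 1.98 higher in the neutron group than at 25%, but on the slide that held 2 arrays of each it was 0.80 lower.

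**Figure D1:**
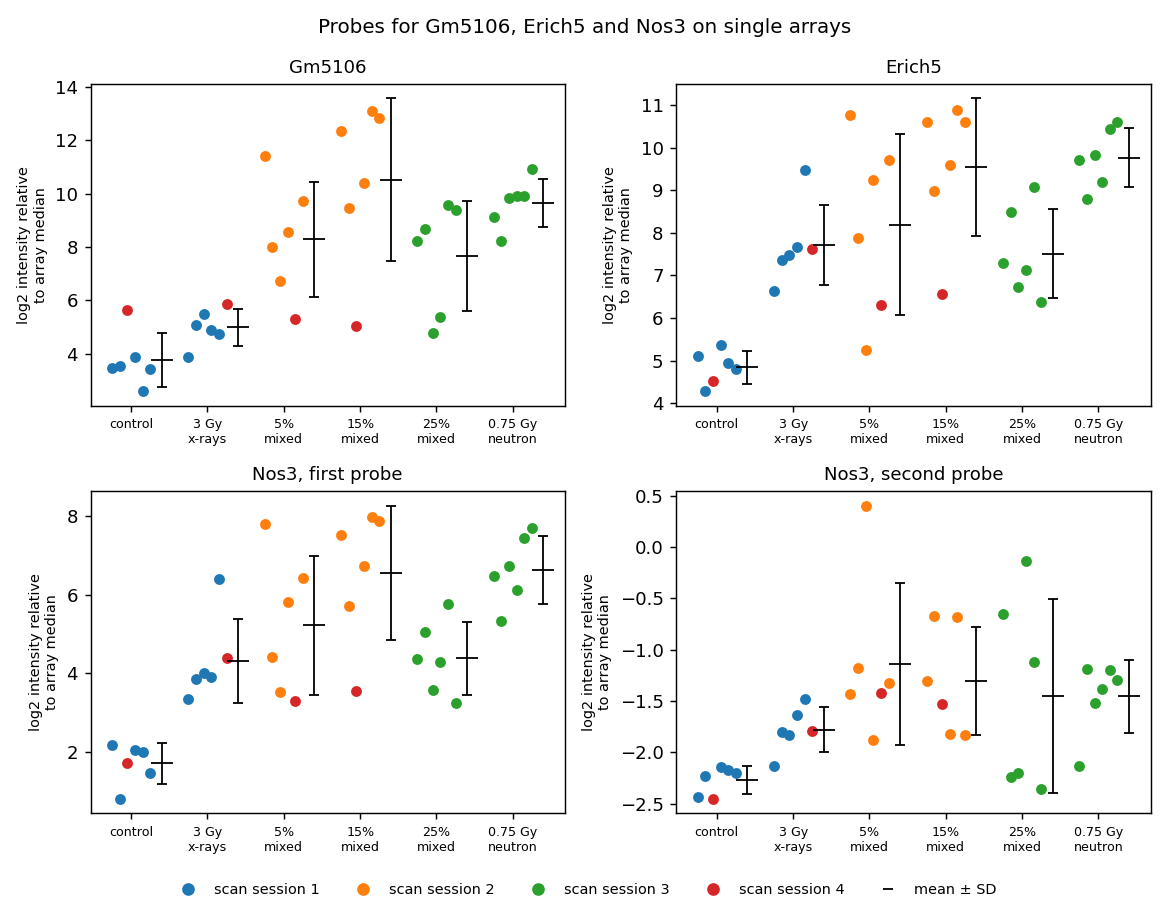
Log2 intensity relative to the array median (vertical axis) of the 4 probes on single arrays, by exposure group (horizontal axis). Points are arrays in order of replicate number, coloured by scan session, and the bars give the mean ± SD of 6 arrays. The neutron arrays of Gm5106, Erich5 and the first Nos3 probe lie above every control, while the second Nos3 probe was well above background on 1 array.

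Erich5 ran from 4.28 to 5.37 in controls, with a median of 4.86. After x-rays its arrays read 6.63, 7.37, 7.49, 7.67, 9.47 and 7.62, all above the controls. The neutron group read 9.71, 8.80, 9.83, 9.20, 10.45 and 10.60. The 5% field spread from 5.24 to 10.78 around a median of 8.55, the 15% field from 6.57 to 10.88 around 10.10, and the 25% field from 6.38 to 9.07 around 7.22. Every array of the x-ray, 15%, 25% and neutron groups exceeded the highest control, and 5 of 6 did at 5%. Erich5 thus differed from Gm5106 in the x-ray group, where it was 7.33-fold above controls. Against controls it was 30.5-fold higher after neutrons (9.77 ± 0.69 against 4.83 ± 0.39, SD, n = 6 each), 26.1-fold at 15%, 10.2-fold at 5% and 6.41-fold at 25%. On the slide of session 4, Erich5 was 4.53 in the control, 7.62 after x-rays, 6.30 at 5% and 6.57 at 15%. Here the exposed arrays stayed 3.09, 1.77 and 2.04 above the control, with x-rays highest.

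The first Nos3 probe gave the pattern of Erich5. It read 2.18, 0.80, 1.72, 2.05, 2.00 and 1.45 in controls and 3.35, 3.86, 4.00, 3.89, 6.41 and 4.38 after x-rays. The neutron group read 6.47, 5.33, 6.74, 6.11, 7.44 and 7.71, and every exposed array of the 5 irradiated groups lay above the highest control. The 5% field ranged from 3.29 to 7.80 with a median of 5.12, the 15% field from 3.54 to 7.99 with a median of 7.12, and the 25% field from 3.23 to 5.76 with a median of 4.33. Its mean was 30.5-fold above controls after neutrons (6.63 ± 0.87 against 1.70 ± 0.51), 29-fold at 15%, 11.4-fold at 5%, 6.41-fold at 25% and 6.11-fold after x-rays. On the slide of session 4 it was 1.72 in the control, 4.38 after x-rays, 3.29 at 5% and 3.54 at 15%, again with the x-ray array highest.

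The second Nos3 probe, printed 10 times on each array, did not share this pattern. It was well above background on 1 of 36 arrays, replicate 3 of the 5% field, and passed the weaker test of a signal significantly above background on 11 of 36. In the neutron group it passed that weaker test on 0 of 6 arrays, with log2 values of -2.13, -1.19, -1.52, -1.38, -1.20 and -1.29. The controls read from -2.45 to -2.14. On this scale all 6 neutron arrays thus lay above the highest control, the lowest of them barely. Before the array median was subtracted, the intensity of this probe was 4.28 to 5.11 in controls and 3.49 to 5.21 after neutrons. Since neither group was well above background, no fold difference is given for it. Over the 36 arrays the first and second Nos3 probes correlated at r = 0.382, and at -0.036 after the group means were removed, where the first Nos3 probe and Erich5 correlated at 0.964. The level of Nos3 in the irradiated groups thus rests on 1 of its 2 probes.

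The first Nos3 probe also overlapped, by 33 bases, a probe on the opposite strand assigned to Atg9b, an autophagy gene, at chr5:23890011-23890070. The Atg9b probe carried the complementary run, with A and G alternating over 10 bases. It was well above background on 0 of 36 arrays and significantly above background on 0 of 6 neutron arrays, where it ranged from -1.90 to -1.03. Its mean was -2.16 in controls and -1.27 after neutrons, and its r with the first Nos3 probe was 0.703 over the 36 arrays. Among the Nos3 and Atg9b probes, the high signal was therefore measured by the first Nos3 probe alone.

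Erich5 and the first Nos3 probe moved together on single arrays. Their correlation over the 36 arrays was r = 0.986, and the difference between the 2 log2 values had an SD of 0.35. Replicate 3 of the 5% field stood apart with a difference of 1.71, and without it the SD was 0.25. Both probes were highest within x-rays on replicate 5, within the 5% field on replicate 1, within the 15% field on replicate 5 and within the 25% field on replicate 5. Gm5106 followed them less closely, at r = 0.849 with Erich5 and 0.875 with Nos3. These correlations are descriptions, since arrays share exposure and scan session. Array-wide measures moved with the genes too. Over the 36 arrays the number of probes well above background was lower where they were high. The correlation was r = -0.569 for Gm5106, -0.715 for Erich5 and -0.695 for Nos3. The arrays named above for x-rays, 15% and 25% had the fewest such probes of their group (16548, 15569 and 15782). At 5%, replicate 1 had 17155 and replicate 2 fewer (16051). The part of these measures in the differences was not tested.

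The neutron group and the 25% field received the same neutron dose and were scanned in the same session, the 25% field with x-rays added. Erich5 was 4.76-fold higher in the neutron group, with 5 of 6 arrays above every array of the 25% field, and on the slide with 2 arrays of each the log2 difference was 1.54. Nos3 was also 4.76-fold higher, again with 5 of 6 arrays above, and 1.40 higher on that slide. Gm5106 was 3.95-fold higher with 4 of 6 arrays above, and lower on that slide as given before. The difference between these groups thus had the same sign on the shared slide for Erich5 and Nos3, but the arrays there overlapped. The lower neutron array read 8.80 for Erich5 and 5.33 for Nos3, where the higher 25% array read 9.07 and 5.76. The other 25% array was replicate 6 (6.38 and 3.23), which stood apart in heart muscle markers (below).

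**Figure D2:**
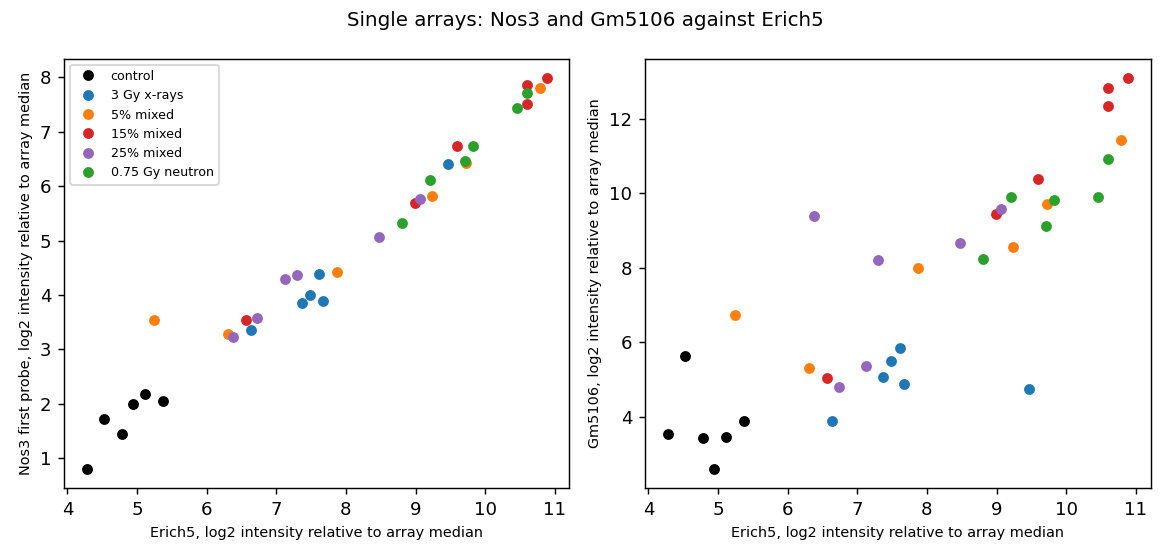
Log2 intensity relative to the array median of the first Nos3 probe (left) and of Gm5106 (right) against that of Erich5, with 1 point for each of 36 arrays, coloured by exposure group. The Nos3 points follow Erich5 closely (r = 0.986), whereas in the Gm5106 panel (r = 0.849) the x-ray arrays lie low for their Erich5 level.

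The mixed fields were then compared with x-rays of the same total dose, a comparison that did not use the values behind the choice of these genes. limma was fitted over 15077 genes for each comparison, and a gene was called where p was under 0.001 and, after Benjamini-Hochberg adjustment over all genes, under 0.05. Gm5106 was called in the 15% field, 46.3-fold above x-rays (log2 difference 5.53, SE 1.09, 95% CI 3.20 to 7.86, limma adjusted p = 0.0156), with 5 of 6 arrays above every x-ray array. Of all genes tested, 4.13% were called in that comparison, 1.67% higher and 2.46% lower. The two-sided exact permutation test on these 6 against 6 arrays gave p = 0.00866, where the smallest p it allows is 0.00216, and 12 such tests were computed for the 3 genes. Erich5 and Nos3 were not called at 15%. Erich5 was 3.56-fold higher than after x-rays (log2 difference 1.83, 95% CI 0.39 to 3.27, limma adjusted p = 0.0945, exact p = 0.0368) and Nos3 4.74-fold higher (log2 difference 2.24, 95% CI 0.70 to 3.79, limma adjusted p = 0.0616, exact p = 0.0325). Within the slide of session 4, the sign of the 15% difference was the opposite for the 3 genes, at -0.82 for Gm5106, -1.04 for Erich5 and -0.84 for Nos3 (1 array against 1), and with slide or scan session as a block the fit gave these same values and no call. Without that slide, all 3 were called at 15%, with log2 differences of 6.80, 2.41 and 2.86 and limma adjusted p of 7.4e-05, 0.0126 and 0.0106, a setting chosen after seeing the data. That setting leaves no session that held both groups, so exposure and session cannot be told apart in it.

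At 5%, no gene of the 15077 was called against x-rays in limma, a share of 0%, although 3503 had an unadjusted p under 0.05 and array weights gave 971 calls. Gm5106 was 9.83-fold higher than after x-rays (log2 difference 3.30, 95% CI 1.61 to 4.99, limma adjusted p = 0.0771, exact p = 0.00649), with 5 of 6 arrays above every x-ray array. It was called without replicate 5 of the 5% field, the array of session 4 (3.90, limma adjusted p = 0.0162), which leaves no session shared by the groups. The differences of Erich5 (0.48, 95% CI -1.25 to 2.21) and Nos3 (0.90, 95% CI -0.65 to 2.46) lay within the spread between arrays.

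At 25%, where 2.58% of all genes were called against x-rays (0.749% higher and 1.83% lower), Gm5106 was 6.4-fold higher without passing the threshold (log2 difference 2.68, 95% CI 1.03 to 4.32, limma adjusted p = 0.057, exact p = 0.0303). It passed without replicate 3 of that group, its lowest array (3.25, limma adjusted p = 0.0143). No session held both the 25% field and x-rays, so exposure and session cannot be told apart in any of these values. Erich5 and Nos3 differed from x-rays by -0.19 (95% CI -1.30 to 0.91) and 0.07 (95% CI -1.05 to 1.19), so the intervals leave room for about a 2-fold difference either way. The 15% field was not told apart from the 5% field by any of the 3 genes. The log2 differences were 2.23 for Gm5106, 1.35 for Erich5 and 1.34 for Nos3, each with an exact p above 0.1 (0.173, 0.247 and 0.195), and 0% of all genes were called by limma, with 323 under an unadjusted p of 0.05.

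**Figure D3:**
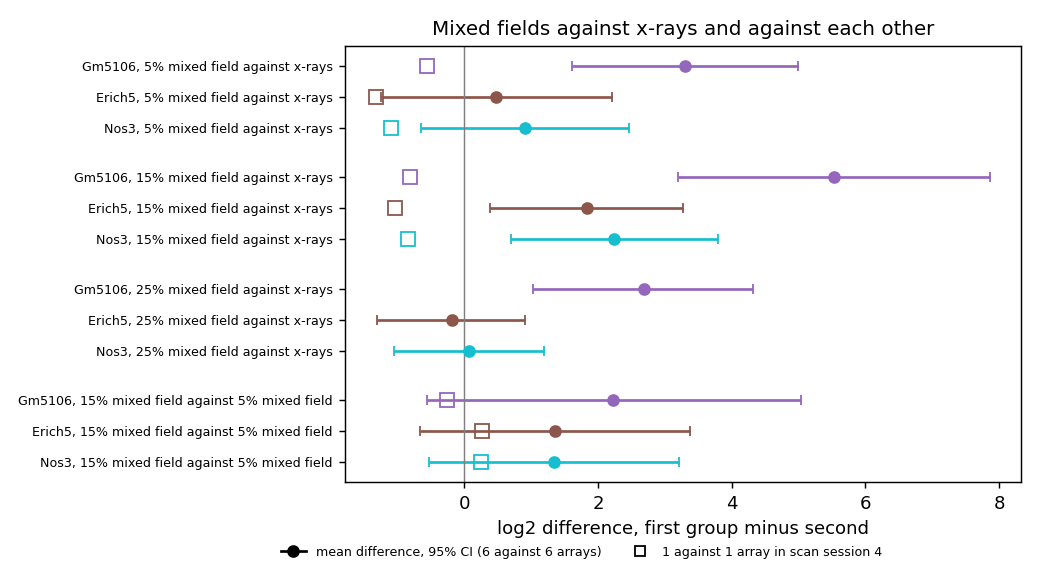
Log2 difference (horizontal axis) of each gene for the mixed fields against x-rays and for 15% against 5%, as the mean of 6 against 6 arrays with its 95% CI, and as the difference of the single arrays on the slide of session 4 (open squares). Gm5106 lies highest in each comparison, and the open squares against x-rays lie below 0.

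In the ranking of called rises after neutrons among genes well above background on all 12 arrays, Gm9924 stood first at 74.4-fold, ahead of Gm5106 at 59.5-fold, Erich5 at 30.5-fold and Nos3 at 30.5-fold. Gm9924 is a predicted gene on the same chromosome as Gm5106. Just below came Tas2r109, a bitter taste receptor, at 29.2-fold and Wfdc13, a small secreted inhibitor-like protein, at 25.3-fold. Of the 10 genes at the head of the ranking, 7 had a probe with a C and T run of 10 or more bases, Erich5 and Nos3 among them, and 1 more, Golt1a, had a G and T run of 12 bases.

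The genes whose signal was most like that of the 3 genes over the 36 arrays were named by a set rule, the 5 highest correlations each. For Erich5 they were Wfdc13 (r = 0.997), Srpx2, a secreted sushi-domain protein (0.997), 4733401D01Rik (0.996), 9030624J02Rik (0.994) and an unannotated probe (0.993). For the first Nos3 probe they were Tas2r109 (0.989), Erich5 itself (0.986), Gm5608 (0.984), Wfdc13 (0.983) and Srpx2 (0.983). Of these 7 distinct genes other than Erich5, every probe held a C and T run of at least 8 bases and 6 held 10 or more, against 38 of 39429 probes on the array (0.0964%) with 10 or more. After the group means were removed, Lrrc19 entered the list of Erich5 and Tlr7, a receptor for single-stranded RNA, that of Nos3, with runs of 20 and 11 bases.

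For Gm5106 the likeness was looser. Gm9924 led (r = 0.977), followed by Wsb2, an adaptor of ubiquitin ligases (0.958), an unannotated probe (0.954), Syp, which encodes the synaptic vesicle protein synaptophysin (0.941), and another unannotated transcript (0.940). With group means removed, Ap2m1, a subunit of the clathrin adaptor complex, replaced the last. The 10 bases common to the Gm5106 and Gm9924 probes occurred in 3 probes of the array (0.00761%). The remaining holder, Saa4, had r = -0.166 with Gm5106, but its probe was well above background on 17 of 36 arrays and did not pass the background filter.

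The run was then followed over all probes that passed the background filter, with the probes of the 3 genes left out. These classes were formed after the values had been seen, so they are described with no test. The median difference from controls in the neutron group was -0.20 on the log2 scale for 20737 probes with a C and T run of 5 or fewer bases, 0.15 for 6 bases, 0.36 for 7, 0.47 for 8, 1.86 for 9 and 3.39 for the 36 probes with 10 or more. Over all 21481 probes the median was -0.19. In the class of 10 or more, 32 of 36 probes (88.9%) were over 1 log2 unit higher after neutrons, against 13.6% of all probes. The medians of that class in the other groups were 2.41 after x-rays, 1.96 at 5%, 2.84 at 15% and 1.51 at 25%. The corresponding differences of Erich5 were 2.87, 3.36, 4.71 and 2.68, and 4.93 after neutrons. Erich5 and Nos3 thus had larger differences than the middle of their class. After neutrons this follows from how both were chosen. In the other groups it is not independent of the choice either, since the same 6 control arrays took part in it. The order of the groups for Erich5 matched that of the class except that x-rays stood above 5% in the class.

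The complementary run was not high. For the 34 probes with A and G alternating over 10 or more bases, the median difference from controls was -0.42 after neutrons and -0.57 after x-rays. Probes with long A and C runs (70 probes) were 1.98 higher after neutrons and 0.84 higher after x-rays, and those with long G and T runs (148 probes) were 1.61 and 0.32 higher. The G and T class stood at 1.58, 2.42 and 1.16 above controls at 5%, 15% and 25%.

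**Figure D4:**
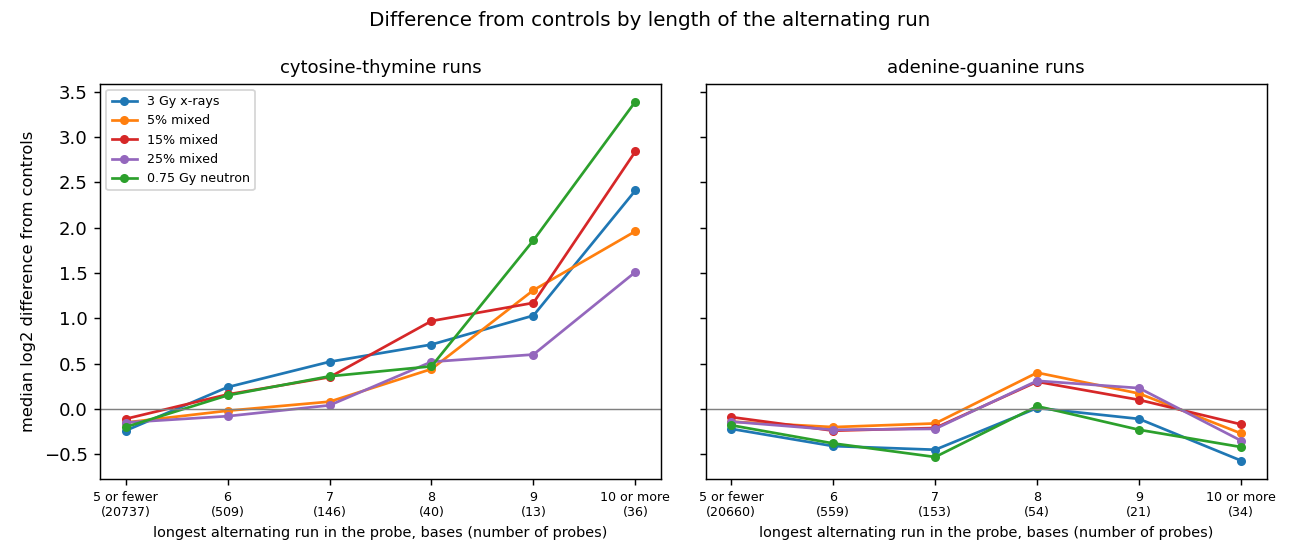
Median log2 difference from controls (vertical axis) of probes grouped by the length of their longest alternating run in bases (horizontal axis, number of probes in brackets), for cytosine-thymine runs (left) and adenine-guanine runs (right), with 1 line for each irradiated group. The probes of the 3 genes are left out. With cytosine-thymine runs the neutron median goes from -0.20 at 5 or fewer bases to 3.39 at 10 or more, and with adenine-guanine runs it is -0.42 at 10 or more.

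Array by array, the median of the 36 probes with long C and T runs followed Erich5 at r = 0.980 and the first Nos3 probe at r = 0.958, and the second Nos3 probe at 0.248. Gm5106, whose own probe has no such run, followed the G and T class at r = 0.888, the A and C class at 0.872 and the C and T class at 0.779. The G and T class shared with Gm5106 the low x-ray group. Its medians were 5.63 to 6.07 over session 1 and 5.72 to 6.16 over the slide of session 4, exposed arrays included, and 6.69 to 9.02 over session 2 and 5.92 to 7.82 over session 3. The C and T class differed between exposures within a session, with 5.15 to 5.86 in the controls and 7.09 to 9.83 in the x-ray arrays of session 1, and with 5.23, 7.70, 6.24 and 6.58 in control, x-rays, 5% and 15% on the slide of session 4.

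**Figure D5:**
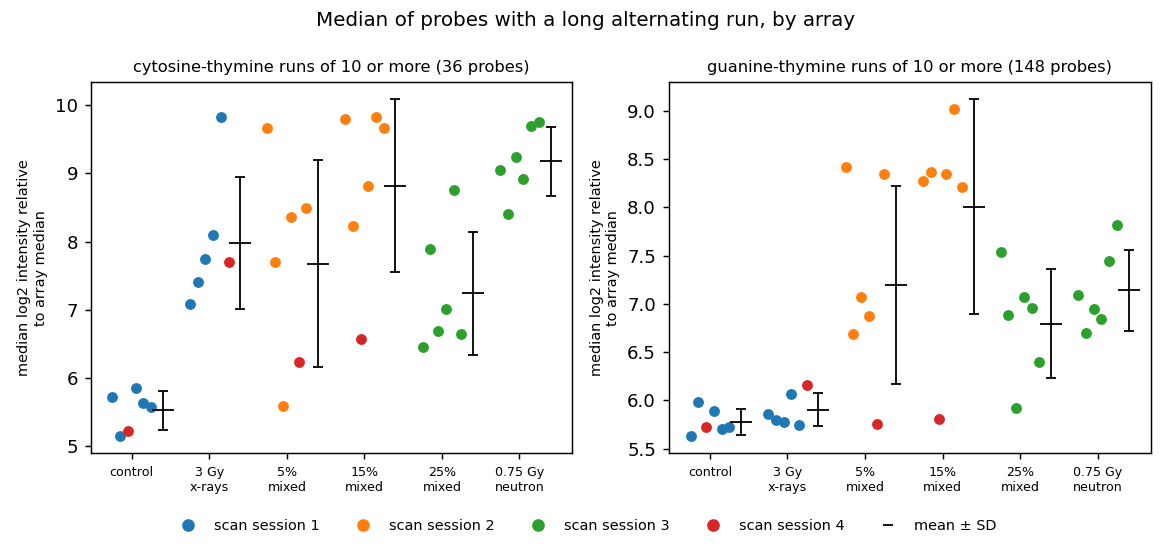
Median log2 intensity relative to the array median of the 36 probes with a cytosine-thymine run of 10 or more bases (left) and of the 148 probes with a guanine-thymine run of 10 or more (right), by group and array. Points are arrays coloured by scan session, bars are mean ± SD of 6 arrays. The left panel has the pattern of Erich5 and Nos3, and in the right panel the arrays of sessions 1 and 4 lie between 5.63 and 6.16.

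The nitric oxide pathway was examined as a list of 38 genes from synthases to cyclic GMP targets, of which 26 other than Nos3 were tested. After neutrons 4 rose and 3 fell, that is 7 of 26 called where 36.5% of all genes were (16.1% higher and 20.4% lower), with a median log2 difference of -0.28 beside -0.12 over all genes. Gch1, the rate-limiting enzyme of tetrahydrobiopterin synthesis, rose 1.84-fold after neutrons (log2 difference 0.88, limma adjusted p = 0.00116), and more in the 5% field (2.58, limma adjusted p = 5.34e-06). Calm3, 1 of the calmodulin genes, rose 2.13-fold after neutrons (limma adjusted p = 6.99e-05), and Pde5a, which degrades cyclic GMP, rose 1.95-fold (limma adjusted p = 0.000159). Spr, the last enzyme of tetrahydrobiopterin synthesis, fell 3.4-fold after neutrons (limma adjusted p = 5.5e-06). Cav1, the caveolin that binds the enzyme, was called higher after neutrons (limma adjusted p = 0.0016). No fold difference is given for it, because the Cav1 probe was well above background on 0 of 6 controls and on 1 of 6 neutron arrays. Prkg1, the cyclic GMP-dependent kinase, was called at 5%, 15% and 25% and differed by 0.38 after neutrons (limma adjusted p = 0.3). After x-rays 3 list genes rose and 1 fell, where 29.8% of all genes were called (12.9% higher and 16.9% lower). At 5% 7 list genes rose and 1 fell, beside 23.1% of all genes (9.01% higher and 14% lower). At 15% 6 rose and 1 fell, beside 29.2% (12.6% higher and 16.6% lower), and at 25% 6 rose and 1 fell, beside 24.8% (10.9% higher and 13.9% lower). With slide as a block, 0 list genes were called by limma at 5% and at 15%, 1 after x-rays and 4 after neutrons. Over all 15077 genes the calls went from 3476 to 35 at 5% and from 4398 to 60 at 15%. They went from 4492 to 1267 after x-rays and from 5509 to 4538 after neutrons. Of the other synthases, Nos1, the neuronal form, was well above background on 0 of 36 arrays. Nos2, the inducible form, was well above background on 34, with group means of 2.53 in controls and 1.92 after neutrons. No called gene of the list had a probe with an alternating run of 8 or more bases.

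Markers of blood cells were checked first. All 12 red cell, 10 platelet, 8 monocyte, 8 B cell, 8 T cell and 7 NK cell markers, and 7 of 9 neutrophil markers, were well above background on every control array. After neutrons all 12 red cell markers rose (median log2 difference 1.67) and 7 of 8 B cell markers fell (median -1.41). After x-rays 11 of 12 red cell markers rose (median 2.63) and 8 of 8 B cell markers fell (median -4.31). Of all genes, 12.9% were called higher and 16.9% lower after x-rays. The summed red cell level ranged from 14.68 to 15.10 in controls, 15.59 to 16.70 after x-rays and 16.22 to 16.72 after neutrons. Of 9 neutrophil markers tested, 3 rose and 1 fell after neutrons, beside 16.1% of all genes called higher and 20.4% lower. The 3 were Camp, Ltf and Ngp, granule proteins of maturing neutrophils, which were called higher in each irradiated group. Camp was 2.07-fold above controls after neutrons, 9.77-fold after x-rays and 11.8-fold at 15%. Ltf and Ngp had the lowest control means of the 9 markers (-0.61 and -1.21), so no fold difference is given for them. After neutrons the monocyte markers Csf1r and Cx3cr1 (2 of 8) and the platelet marker Pf4 (1 of 10) also rose, beside that same 16.1%. The part of these cells in the signal of the 3 genes was not tested. Endothelial markers were read beside Nos3. Of 15 markers 9 were tested, 0 of them was called after neutrons by limma, and Emcn was well above background on no array. Their summed level ranged from 9.42 to 9.83 in controls and from 9.56 to 10.03 after neutrons on the log2 scale. In the 25% field 4 of the 9 rose, Plvap, Egfl7, Vwf and Tie1 (the last well above background on 0 of 6 controls), and the summed level ranged from 9.61 to 10.55. In that field 2 of 10 platelet markers, Pf4 and Gp1ba, were called higher too, beside 10.9% of all genes. Plvap was also called after x-rays and at 5%, and Plvap and Tie1 at 15%. Of 8 heart muscle markers, relevant to cardiac puncture, 2 were tested, 1 of them was called higher after neutrons, and none was well above background on every control array. Their summed level ranged from 1.07 to 2.79 in controls and from 2.39 to 3.22 after neutrons, and Myl7 was well above background on no array. Replicate 6 of the 25% field stood apart at 7.96, where the next highest of the 36 arrays read 4.23. Without it the differences at 25% against x-rays were 2.33 for Gm5106, 0.03 for Erich5 and 0.30 for Nos3, none of them called. The part of either cell type in the Nos3 signal was not tested.

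Of the neighbours within 200 kb of the probes, 6 of 17 tested (35.3%) were called after neutrons, near the 36.5% of all genes. Of 4 tested near Gm5106, Abcb4, a phospholipid transporter of bile, rose (log2 difference 1.11) and Crot, a peroxisomal carnitine transferase, fell (-1.23) after neutrons. Near Erich5, 1 of 5 tested genes was called, the ribosomal protein gene Rpl30, which fell (-0.86). Near Nos3, 3 of 8 were called, with Asic3, an acid-sensing ion channel, higher (2.34) and Abcb8 (-0.69) and Tmub1 (-0.95) lower. No tested neighbour came near the differences of 5.89, 4.93 and 4.93 of Gm5106, Erich5 and Nos3. Since the 3 genes were chosen for these same differences, that gap follows from the choice.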

How the data were processed

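Per the labels, RNA from 36 blood samples was labelled with Cy3 and hybridised to Agilent 4x44K v2 mouse arrays, and the deposited intensity values came from Agilent Feature Extraction 12.0.2, which subtracts background. The authors also deposited a log2 table, median normalized and filtered by them, used here as an alternative. Uniform spots of a probe were averaged as log2 processed signal and the array's median over probes was subtracted. Kept probes were significantly above background on over 75% of arrays and deviated 1.5-fold from their own median on at least 20%, and the brightest probe stood for a gene (15077 genes). limma 3.58.1 in R 4.3.3 was fitted to the 12 arrays of each comparison, after testing on simulated data. Array numbers limit the precision. The members and lists were chosen with earlier results of these data known. The named genes were the 5 highest correlations per member, the ranks next to the members, at most 6 called nitric oxide genes with the largest difference plus Nos1 and Nos2, and called neighbours within 200 kb. Genes beyond these were named after their values were seen. Alternatives covered scaling, background, filters, blocks, weights, the threshold and leaving out arrays.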

Additional observations from a re-analysis of the deposited data

Results flagged for a closer look

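Of 24 sets of 6 arrays (4 probes in 6 groups), 4 had an array far from the other 5, and chance alone marks about 1 in 20 such sets. X-ray replicate 5 read 6.41 for the first Nos3 probe, where the next highest x-ray array read 4.38, and 9.47 for Erich5, where the next read 7.67. Gm5106 on the same array read 4.74, within the range of the other x-ray arrays. The second Nos3 probe read 0.40 on replicate 3 of the 5% field, where the next highest read -1.18, and -2.13 on replicate 1 of the neutron group, where the next lowest read -1.52. The difference between the 15% field and x-rays was called for Gm5106, at 5.53 on the log2 scale, and was -0.82 between the 2 arrays that shared a slide.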

How the results depend on the processing

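The call of Gm5106 at 15% against x-rays was kept in 26 of 28 alternatives. It was lost with slide or scan session as a block, which leaves the 2 arrays that shared a slide to set the value (-0.82), and Erich5 (-1.04) and Nos3 (-0.84) also changed sign there. The same blocks gave -0.56, -1.32 and -1.09 for Gm5106, Erich5 and Nos3 at 5% against x-rays, and -0.33 and -0.59 for Gm5106 at 5% and 15% against controls. Array weights brought calls for Gm5106 at 5% (3.44) and for Erich5 (2.63) and Nos3 (3.14) at 15%, and normexp for Erich5 (1.86) and Nos3 (2.07) at 15% and Gm5106 at 25% (3.01). Without the slide of session 4, chosen after seeing the data, Gm5106 was called at 5% (4.07) and Erich5 (2.41) and Nos3 (2.86) at 15%. Exposure and session cannot be told apart without that slide. At 25% against x-rays the sign was not settled. Erich5 read 0.37 with normexp, and Nos3 read -0.14 with 75th percentile centring, -0.12 when centred on probes well above background on all arrays, -0.14 with quantile normalization, -0.10 in the deposited table and -0.01 with array weights. Leaving out 1 array at a time gave, at 5% against x-rays, 2.67 to 3.90 for Gm5106, -0.04 to 1.07 for Erich5 and 0.39 to 1.32 for Nos3. At 15% it gave 5.02 to 6.63, 1.57 to 2.43 and 1.96 to 2.85, at 25% 2.30 to 3.25, -0.51 to 0.16 and -0.21 to 0.49, and for 15% against 5% 1.64 to 3.33, 0.76 to 1.95 and 0.96 to 1.95. Erich5 and Nos3 were called at 15% without replicate 3 of that group, its array of session 4, which likewise leaves no shared session. Causes were not tested.

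Same-numbered samples did not deviate together (mean r = 0.037 over 90 pairs), and the replicate block changed no call of the 3 genes (Gm5106 at 15% against x-rays 5.53, limma adjusted p = 0.0162), with 572 genes called at 15% and 1309 at 25% against 623 and 389. Calls over all genes ranged from 0 to 971 at 5%, 4 to 1929 at 15% and 0 to 1730 at 25% against x-rays, and from 3456 to 8970 for neutrons against controls. Calls in the nitric oxide list ranged from 1 to 11 after x-rays, 0 to 14 at 5%, 0 to 13 at 15% and 4 to 17 at 25%, the lowest of the first 3 with slide as a block. After neutrons they ranged from 2 to 15 and were the same in number (7) without probes holding a long run. The neutron differences were lowest with normexp, at 4.74 for Gm5106, 4.02 for Erich5 and 3.30 for Nos3. A session block could not be fitted for the 25% field or neutrons against controls or x-rays. Signal over background limits the second Nos3 probe.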
